A study of Mus musculus with 4 samples.

Results

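The genes described here are 42 components of the machinery that releases and recycles synaptic vesicles, chosen by symbol from a list that leaves out synaptotagmins, Vamp and Doc2 genes, Cplx1 and Cplx2. All 42 were measured, among 19938 genes. RNA came from cultured cortical neurons of pups at postnatal day 0, on a SV129 x C57BL/6 mixed background. The pups were either Syt1-deficient or wild type, and the labels do not say which array came from which. Lentivirus was added at 5 days in vitro and the cells were harvested at 14 to 15 days. The knockdown group (2 samples) carried shRNAs against calmodulin (CaM), the calcium sensor protein of the cytosol. The rescue group (2 samples) carried the same shRNAs with an shRNA-resistant wild-type calmodulin. The control group (L309) carried control lentivirus, and its array of the same repeat is the denominator of every value, so both groups of a repeat share their control. The medium held serum and Ara-C, which kills dividing cells. The cultures may still hold other cells than neurons. Each value is a ratio on Affymetrix mouse Gene 1.0 ST arrays and is given here as log2, so that 0 is equality with control. Ratios carry no signal level, so neither the presence of neuronal markers nor the order of genes by abundance could be read.

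At a synapse, vesicles filled with transmitter dock at the active zone, a protein scaffold on the presynaptic membrane built of RIM, RIM-binding protein, ELKS, liprin, Bassoon and Piccolo. Munc13 and CAPS proteins prime the docked vesicles, and SNARE proteins then fuse them with the membrane when calcium enters. NSF and SNAP proteins take the SNARE complexes apart for the next round. Dynamin, amphiphysin, endophilin and synaptojanin retrieve the vesicle membrane by endocytosis.

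Calm2 and Calm3, which encode calmodulin, were low in every sample. Calm2 was at -1.08 and -1.72 in the knockdown and at -0.84 and -1.28 in the rescue. Calm3 was at -1.32 and -2.40 in the knockdown, and the rescue gave -2.41 and -3.55. The labels do not say whether the array would detect the rescue construct. Knockdown repeat 2 had the widest spread, with a standard deviation of 0.349 over the log2 ratios of all genes, against 0.232 to 0.243 in the other samples.

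Most release genes lay below control in the knockdown and near it in the rescue. Their median was -0.23 in knockdown repeat 1 and -0.48 in knockdown repeat 2, against -0.02 and 0.02 over all genes. In the rescue it was -0.09 and -0.02. In both knockdown repeats 32 of 42 were below control (31.1% of all genes were), 2 were above it (30.5% of all genes) and 8 changed sides. Of the 42, 3 were at least 1.5-fold below control in both repeats (0.757% of all genes) and 0 at least 1.5-fold above (0.281% of all genes). In limma, 0 of 42 passed an adjusted p of 0.05 in either direction (0.171% of all genes were lower and 0.135% higher), and the smallest adjusted p was 0.0564, for Rimbp2. At an unadjusted p under 0.05, 24 were lower (9.04% of all genes) and 1 higher (6.93% of all genes). A fit that also takes the repeat into account (as a block) called 14 lower (3.48% of all genes) and 1 higher (1.91% of all genes). Against control, this fit drops from the spread what both groups of a repeat share through their control array. That part stays in the means, so the blocked p-values against control can be too small. Without knockdown repeat 1 the knockdown had 1 sample and no spread of its own, and the members' median was -0.48. The members are described by their values, and the blocked fit is given where it makes a call.

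**Figure D1:**
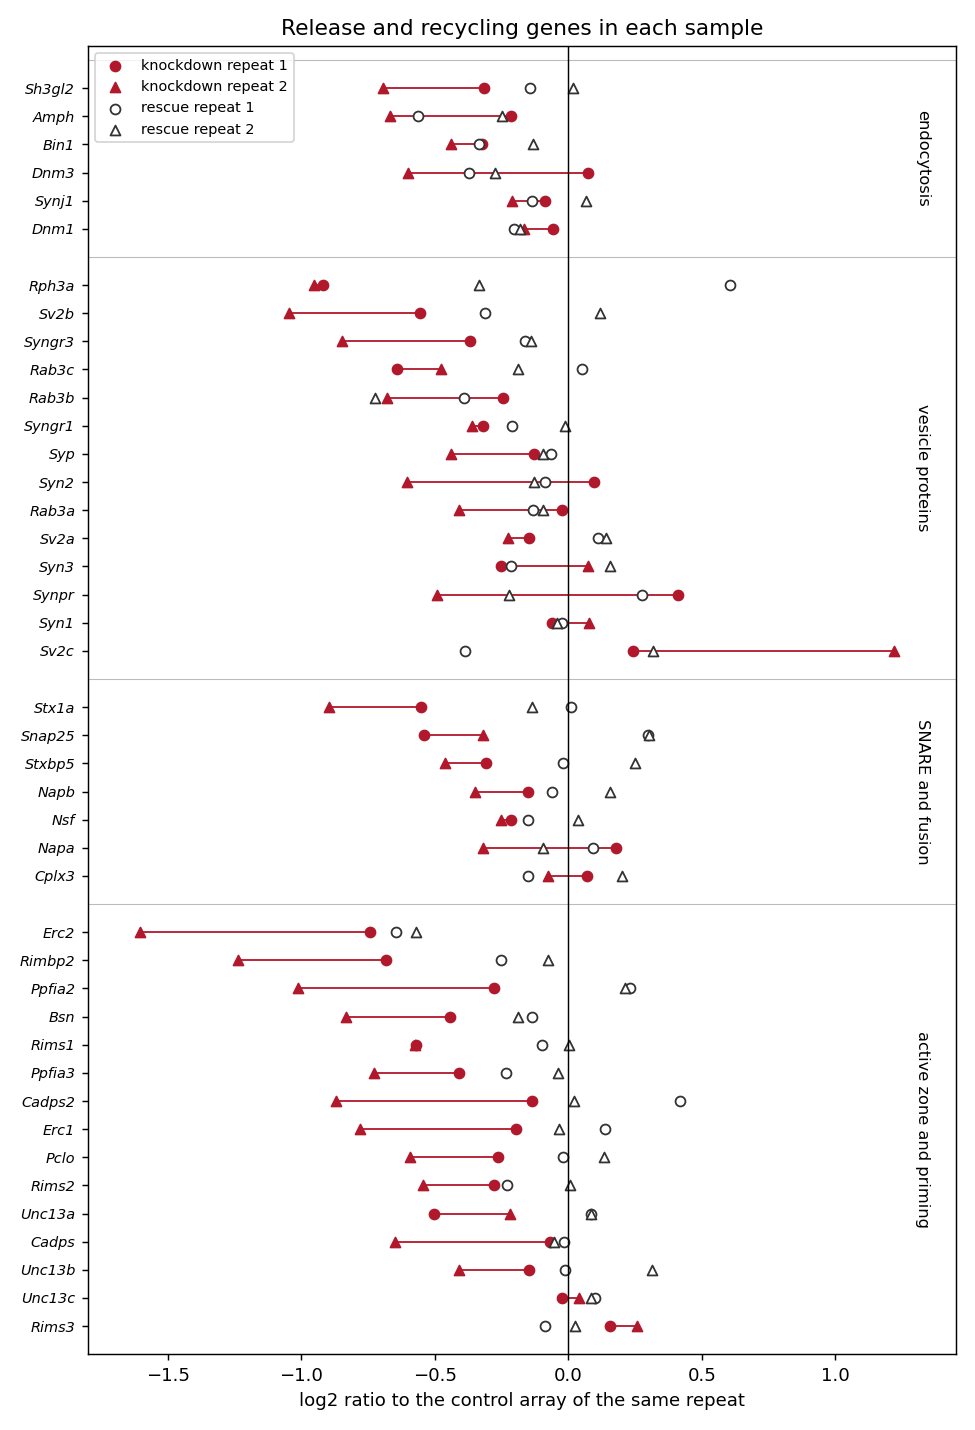
Log2 ratio to control of each of the 42 members in the 4 samples, by role; filled symbols are knockdown, open symbols rescue, circles repeat 1 and triangles repeat 2, and lines join the knockdown repeats. Filled symbols lie left of the open ones for most active zone genes, while Sv2c has its knockdown repeat 2 value far to the right, at 1.22.

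Markers of other cells moved in the same samples. All 10 astrocyte markers were above control in both knockdown repeats, with medians of 0.27 and 0.37, against -0.08 and -0.03 in the rescue. Of 7 excitatory neuron markers measured, 6 were below control in both knockdown repeats, with medians of -0.44 and -0.78, against -0.06 and -0.17 in the rescue. The other, Slc17a6, was above control in every sample, at 0.66 and 1.42 in the knockdown and at 1.61 and 0.62 in the rescue. The 10 general neuron markers had medians of -0.06 and -0.30, with 6 below and 3 above control in both repeats. Rescue medians of these were -0.03 and -0.10. Interneuron markers (10) had medians of 0.15 and -0.49, but lay lower in the rescue, at -0.30 and -0.56. In both rescue repeats 6 of the 10 were below control (29.8% of all genes), and 5 were lower at an unadjusted limma p under 0.05 (4.49% of all genes). At that limit 7 of 10 astrocyte markers were higher in the knockdown (6.93% of all genes) and 0 lower. In the rescue 0 were higher and 2 lower. Of excitatory neuron markers, 5 of 7 were lower in the knockdown (9.04% of all genes) and 1 higher, against 0 and 1 in the rescue. Both knockdown values lay above both rescue values in 9 of 10 astrocyte markers (16.5% of all genes). They lay below in 5 of 7 excitatory neuron markers (15.1% of all genes). Fibroblast markers were at -0.06 and 0.53 (rescue -0.12 and -0.09), and microglia markers at -0.46 and 0.06 (rescue -0.20 and -0.09). Oligodendrocyte lineage markers were at 0.01 and 0.19 (rescue -0.10 and -0.21), and endothelial markers at 0.02 and 0.32 (rescue 0.04 and 0.11). The part of these shifts in the values below was not tested. In bulk RNA, fewer cells of a type and less RNA per cell cannot be told apart.

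The active zone and priming genes lay lowest as a group, with 13 of 15 below control in both knockdown repeats and medians of -0.28 and -0.65. Erc2, which encodes an ELKS scaffold, was at -0.74 and -1.60 in the knockdown and at -0.65 and -0.57 in the rescue. It was thus low in all 4 samples, and its groups did not overlap. Its knockdown mean was -1.17 (SE 0.19, n = 2, 2.25-fold below control, limma adjusted p = 0.0603, or 0.00955 with the block). Rimbp2, the RIM-binding protein that links RIM to calcium channels, was at -0.68 and -1.24 in the knockdown and at -0.25 and -0.08 in the rescue. Its knockdown mean of -0.96 (SE 0.15, n = 2, 1.95-fold below control) had a limma adjusted p of 0.0564, or 0.0129 with the block. Both knockdown values lay below both rescue values, and the rescue values lay near control.

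Upstream sequences are shown for 3 members that mark the range of the data, with Erc2 the lowest active zone gene, Stx1a the lowest SNARE gene and Sv2c the highest member in the knockdown. Each is the 250 bases before the start site listed by RefSeq (GRCm38.p6), written 5′ to 3′ on the gene's strand. Capitals mark TGACG, the core of the cAMP response element, and GGGCGG, the GC box bound by Sp1-type factors, on either strand.

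Erc2 promoter, chr14:27622157-27622406, plus strand: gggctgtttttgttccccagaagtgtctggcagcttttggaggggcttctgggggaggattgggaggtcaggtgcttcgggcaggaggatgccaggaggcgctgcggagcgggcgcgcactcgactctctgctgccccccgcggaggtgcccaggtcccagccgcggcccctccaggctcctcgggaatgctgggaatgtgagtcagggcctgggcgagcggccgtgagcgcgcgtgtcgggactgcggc
Stx1a promoter, chr5:135023232-135023481, plus strand: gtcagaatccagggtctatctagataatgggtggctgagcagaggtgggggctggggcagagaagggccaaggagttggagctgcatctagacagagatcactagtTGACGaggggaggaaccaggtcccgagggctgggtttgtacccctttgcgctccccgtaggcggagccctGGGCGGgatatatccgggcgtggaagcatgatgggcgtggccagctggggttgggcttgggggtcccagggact
Sv2c promoter, chr13:96132578-96132827, minus strand: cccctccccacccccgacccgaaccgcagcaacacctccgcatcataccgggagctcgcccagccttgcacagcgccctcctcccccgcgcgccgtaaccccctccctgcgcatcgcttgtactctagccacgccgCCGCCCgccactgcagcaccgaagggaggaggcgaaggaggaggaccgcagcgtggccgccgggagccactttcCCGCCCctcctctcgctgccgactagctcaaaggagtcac

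The Erc2 sequence held 0 matches of either motif. That of Stx1a held 1 TGACG and 1 GGGCGG, and that of Sv2c held 2 GGGCGG and 0 TGACG. Their GC content was 69.6%, 62.0% and 70.8%, against a median of 52.4% over the 32851 listed promoters. Of the 42 members, 37 had listed promoters, 46 in all, with a median GC content of 61.6%. TGACG was in 21.7% of these and in 17.8% of all promoters, and GGGCGG in 54.3% and 32.7%. Among active zone promoters 10 of 14 held GGGCGG and 3 held TGACG. The letters CCAAT were in 30.4% of member promoters and 33.8% of all, and TATAAA in 6.52% and 12.4%. Searches covered both strands, none of the 4 motifs contains another, and a match describes letters only.

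Further active zone scaffolds followed Erc2 and Rimbp2. Bsn (Bassoon) was at -0.44 and -0.83 in the knockdown and at -0.14 and -0.19 in the rescue, with a knockdown mean of -0.64 (SE 0.13, limma adjusted p = 0.0912, or 0.0217 with the block). Pclo (Piccolo) was at -0.26 and -0.59 in the knockdown and at -0.02 and 0.13 in the rescue, and its knockdown mean of -0.43 passed in neither fit (limma adjusted p = 0.183, or 0.0741 with the block). Both giant scaffolds had groups that did not overlap. Rims1, a RIM that tethers calcium channels and vesicles, had nearly the same value in both knockdown repeats (-0.57 in each) and was at -0.10 and 0.00 in the rescue. Its mean of -0.57 (SE 0.12) had a limma adjusted p of 0.0885, or 0.0239 with the block. Rims2 was at -0.28 and -0.54 in the knockdown and passed in neither fit, and Rims3, a short RIM without the N-terminal domains, was at 0.16 and 0.26. Rims3 was the only member of its role group with both knockdown values above both rescue values (-0.09 and 0.02).

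The liprins Ppfia2 and Ppfia3, which recruit active zone proteins, were both low in the knockdown. Ppfia2 was at -0.28 and -1.01 in the knockdown and above control in the rescue, at 0.23 and 0.21. Its knockdown mean was -0.65 (SE 0.17, limma adjusted p = 0.140, or 0.0346 with the block), and repeat 2 lay far below repeat 1. Ppfia3 was at -0.41 and -0.73, with a mean of -0.57 (limma adjusted p = 0.107, or 0.0363 with the block). Erc1, the second ELKS gene, had 3 probe sets that were all below control in both knockdown repeats. Their mean was -0.20 in repeat 1 and -0.78 in repeat 2, and 0.14 and -0.04 in the rescue (knockdown limma adjusted p = 0.196, or 0.0476 with the block).

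Among the priming factors, knockdown means ran from -0.50 for Cadps2 to 0.01 for Unc13c. Unc13a (Munc13-1, the main priming factor of excitatory synapses) was at -0.50 and -0.22 in the knockdown and at 0.08 in each rescue repeat, over 3 probe sets. These did not all run together, since 1 probe set was at 0.06 in knockdown repeat 2 and the others at -0.46 and -0.26. Unc13b was at -0.15 and -0.41 in the knockdown and at -0.01 and 0.31 in the rescue. Unc13c, averaged over 7 probe sets, stayed at -0.02 and 0.04 in the knockdown, with a 95% confidence interval of the mean from -0.26 to 0.27. Its probe sets lay on both sides of control, from -0.29 to 0.24 in knockdown repeat 1 and from -0.16 to 0.23 in repeat 2. The CAPS gene Cadps2 was at -0.14 and -0.87 in the knockdown and at 0.42 and 0.02 in the rescue (knockdown limma adjusted p = 0.245, or 0.0401 with the block). Cadps was at -0.07 and -0.65 and passed in neither fit.

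Among 7 SNARE and fusion genes, 5 were below control in both knockdown repeats, with medians of -0.22 and -0.32. Stx1a (syntaxin-1A, the SNARE of the target membrane) was at -0.55 and -0.90 in the knockdown and at 0.01 and -0.14 in the rescue. Its groups did not overlap, and its knockdown mean was -0.72 (SE 0.13, n = 2, 1.65-fold below control, limma adjusted p = 0.0737, or 0.0139 with the block). Snap25, its SNARE partner on the same membrane, was at -0.54 and -0.32 in the knockdown and at 0.30 in each rescue repeat. The knockdown values thus lay below control and the rescue values above it, and neither mean passed in either fit (limma adjusted p = 0.153 and 0.646, or 0.0547 and 0.299 with the block). Stxbp5 (tomosyn, an inhibitor of SNARE assembly) was at -0.31 and -0.46 in the knockdown and at -0.02 and 0.25 in the rescue. The genes that disassemble SNARE complexes were closer to control, with Nsf at -0.22 and -0.25, Napb at -0.15 and -0.35 and Napa at 0.18 and -0.32. Cplx3, a complexin known mainly from retina, was at 0.07 and -0.08.

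The 14 vesicle proteins were the most varied role group, with knockdown means from -0.94 to 0.73. Of these, 9 were below control in both knockdown repeats and 1 above it. Rph3a (rabphilin, a Rab3 effector on vesicles) had close knockdown values of -0.92 and -0.95, while its rescue values lay on opposite sides of control at 0.61 and -0.34. Its knockdown mean of -0.94 (SE 0.20, n = 2, 1.91-fold below control) had a limma adjusted p of 0.0941, or 0.0175 with the block. Rph3a, Erc2 and Rimbp2 were the 3 members at least 1.5-fold below control in both knockdown repeats.

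The SV2 glycoproteins, vesicle membrane proteins that modulate release, moved apart. Sv2b was at -0.55 and -1.05 in the knockdown and at -0.31 and 0.12 in the rescue, with a knockdown mean of -0.80 (SE 0.16, limma adjusted p = 0.0885, or 0.0271 with the block). Sv2c was at 0.24 and 1.22 in the knockdown and at -0.39 and 0.32 in the rescue. Its 2 knockdown values differed widely, its groups overlapped, and its mean of 0.73 (SE 0.24, 1.66-fold above control) had a limma adjusted p of 0.205, or 0.0139 with the block. Sv2a was at -0.15 and -0.23, with a 95% confidence interval of the mean from -0.45 to 0.08. No test compared the 3 paralogs with each other.

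Rab3 genes encode the vesicle GTPases that bind RIM and rabphilin. Rab3c was at -0.64 and -0.48 in the knockdown and at 0.05 and -0.19 in the rescue (knockdown limma adjusted p = 0.103, or 0.0330 with the block). Rab3b was low in all 4 samples, at -0.25 and -0.68 in the knockdown and at -0.39 and -0.72 in the rescue, and its groups overlapped (knockdown limma adjusted p = 0.198, or 0.0425 with the block). Rab3a, the main Rab3 of forebrain synapses, was at -0.02 and -0.41. Syngr3 (synaptogyrin-3) was at -0.37 and -0.85 in the knockdown and at -0.16 and -0.14 in the rescue (knockdown limma adjusted p = 0.108, or 0.0297 with the block), and Syngr1 at -0.32 and -0.36 passed in neither fit.

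Synapsins tether vesicles in the reserve pool. Syn1 was at -0.06 and 0.08 in the knockdown and at -0.02 and -0.04 in the rescue, and the 95% confidence interval of its knockdown mean ran from -0.26 to 0.28. Syn2 was at 0.09 and -0.61, and Syn3 at -0.25 and 0.07, so the repeats of both lay on opposite sides of control. Syp (synaptophysin), the most used vesicle marker, was at -0.13 and -0.44, and its relative Synpr at 0.41 and -0.49. The means of these 5 genes passed in neither fit.

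**Figure D2:**
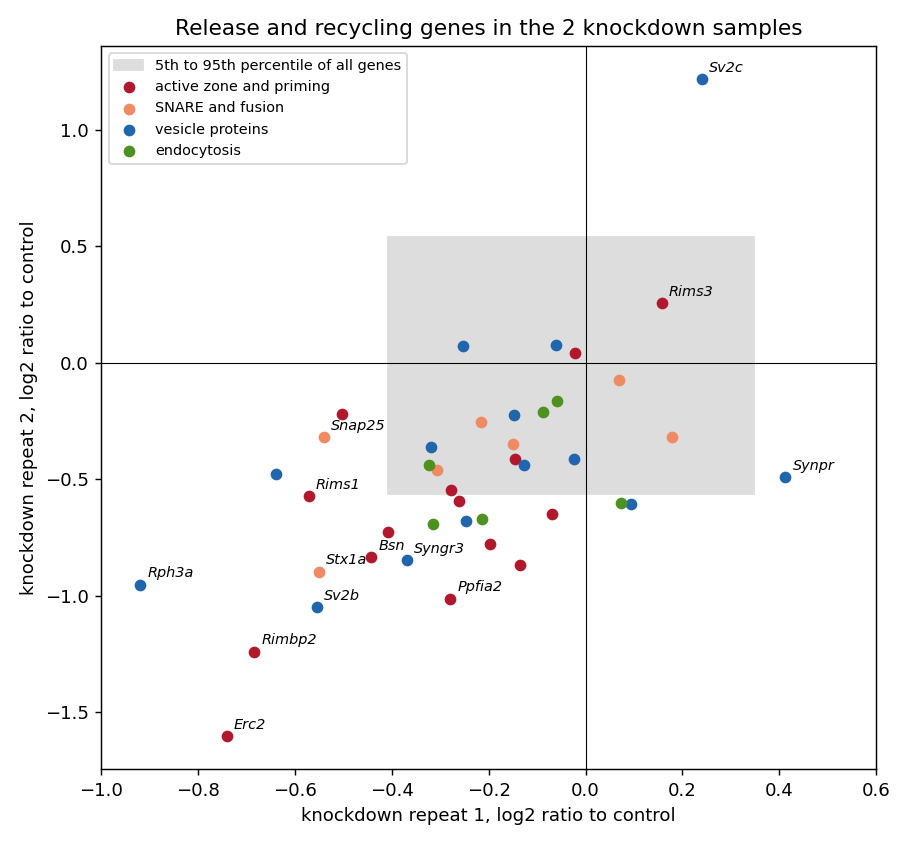
Log2 ratio to control in knockdown repeat 1 (x) against knockdown repeat 2 (y), 1 point per member coloured by role; the grey box spans the 5th to 95th percentile of all genes in each repeat. Erc2, Rimbp2 and Rph3a lie farthest toward the lower left, and Sv2c is at 0.24 and 1.22.

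Of 6 endocytosis genes, 1 had both knockdown values below both rescue values (15.1% of all genes) and 1 had both above (16.5% of all genes). Of the 6, 5 were below control in both knockdown repeats, with medians of -0.15 and -0.52, but 4 were also below it in both rescue repeats, with medians of -0.27 and -0.16. Amph (amphiphysin, which bends membrane and recruits dynamin) was at -0.21 and -0.67 in the knockdown and at -0.56 and -0.25 in the rescue. Bin1, its close relative, was at -0.32 and -0.44 in the knockdown and at -0.34 and -0.13 in the rescue. The groups of both genes overlapped. Sh3gl2 (endophilin-A1), the gene with its knockdown below its rescue, was at -0.31 and -0.69 in the knockdown and at -0.14 and 0.02 in the rescue, with a knockdown mean of -0.50 (SE 0.14, limma adjusted p = 0.141, or 0.0511 with the block). Dnm1, the main neuronal dynamin, was at -0.06 and -0.17 in the knockdown and was lower in the rescue, at -0.20 and -0.18. Dnm3 was at 0.07 and -0.60 in the knockdown, and Synj1 (synaptojanin-1) at -0.09 and -0.21.

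Rescue against control asked how near to control the release genes came when a resistant calmodulin was supplied. In limma, 0 of 42 passed (0% of all genes lower and 0% higher), and 0 passed with the block (0.0652% of all genes lower and 0.0602% higher). At an unadjusted p under 0.05, 3 were lower (4.49% of all genes) and 1 was higher (2.95% of all genes). In both rescue repeats 16 were below control (29.8% of all genes) and 6 above it (24.9% of all genes). Erc2 had the lowest rescue mean, -0.61 (95% confidence interval -1.05 to -0.17, limma adjusted p = 0.570). It was followed by Rab3b at -0.56 (-0.90 to -0.22, limma adjusted p = 0.524) and Amph at -0.41 (-0.75 to -0.06, limma adjusted p = 0.613). Snap25 had the highest, 0.30 (0.02 to 0.58). When the rescue samples were fitted alone, or with either knockdown sample left out, Erc2 passed as lower (0.522% of all genes).

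Knockdown against rescue compared cultures that all carried the shRNAs, and within a repeat the control array cancels. Of the 4 role groups of members, the active zone and priming genes had the largest median difference. For 27 of 42 members both knockdown values lay below both rescue values (15.1% of all genes), and for 2, Rims3 and Dnm1, both lay above (16.5% of all genes). These counts also compare values across repeats, where the control arrays differ and do not cancel. By role, the knockdown was below in 14 of 15 active zone and priming genes, 5 of 7 SNARE and fusion genes, 7 of 14 vesicle proteins and 1 of 6 endocytosis genes. The difference between role groups was not tested. Within repeats, the knockdown was below the rescue in both for 28 members (24.3% of all genes) and above it in both for 4 (30.1% of all genes).

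**Figure D3:**
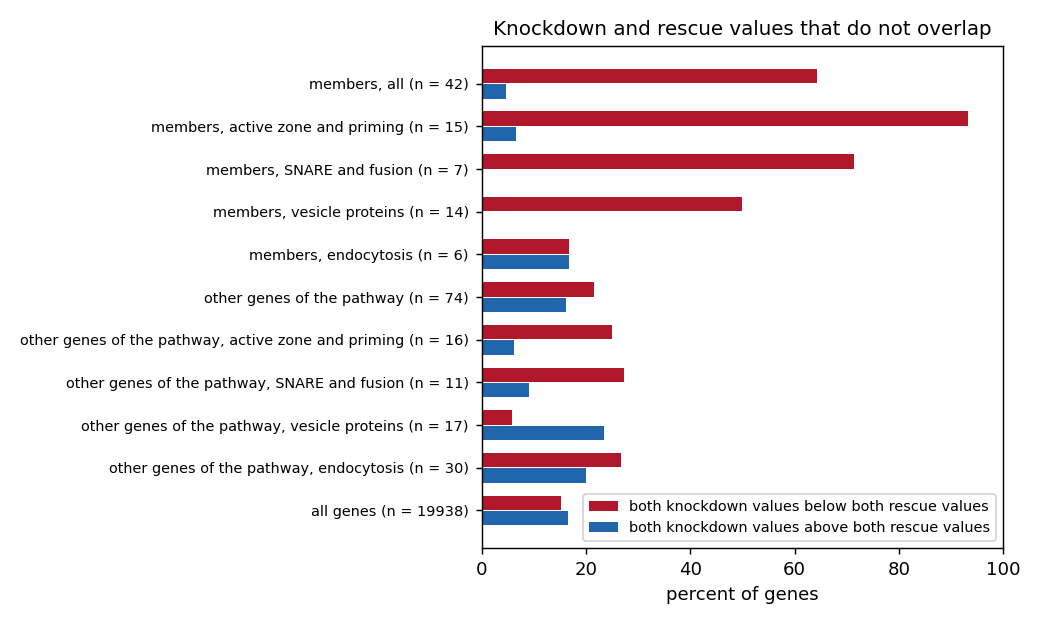
Percent of genes (bars from 0) for which both knockdown values lie below (red) or above (blue) both rescue values, for the members by role, the other genes of the pathway by role, and all genes. The red bar is longest for active zone and priming members, 14 of 15 genes, against 15.1% of all genes.

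The median difference between knockdown and rescue for active zone genes was -0.24 in repeat 1 and -0.69 in repeat 2. For SNARE and fusion genes it was -0.09 and -0.51, for vesicle proteins -0.05 and -0.33 and for endocytosis genes 0.09 and -0.32. Over all genes these medians were -0.01 and 0.05. Repeat 2 gave the lower value in each role group. Rph3a had the largest difference, -1.53 in repeat 1 and -0.62 in repeat 2 (mean -1.07, SE 0.28, 2.10-fold, limma adjusted p = 0.360). Its repeat 1 value holds a rescue value of 0.61. Ppfia2 differed by -0.51 and -1.22 (mean -0.87, SE 0.24, limma adjusted p = 0.403), Rimbp2 by -0.43 and -1.16 (mean -0.80, SE 0.22, limma adjusted p = 0.381) and Snap25 by -0.84 and -0.62 (mean -0.73, SE 0.17, limma adjusted p = 0.306). Rph3a and Snap25 were the members at least 1.5-fold lower in the knockdown in both repeats (0.958% of all genes were), and Sv2c, at 0.63 and 0.90, was the only member at least 1.5-fold higher (0.522% of all genes). Erc2, lowest against control, differed from the rescue by only -0.09 in repeat 1 and by -1.03 in repeat 2.

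In limma, 0 of 42 members passed for knockdown against rescue (0.0301% of all genes lower and 0.0401% higher), with a smallest adjusted p of 0.306, and 0 passed with the block (0.431% of all genes lower and 0.186% higher). At an unadjusted p under 0.05, 16 were lower (4.01% of all genes) and 0 higher (2.81% of all genes). With 2 samples a group the intervals are wide. For Bsn the difference was -0.48 (95% confidence interval -0.91 to -0.04) and for Stx1a -0.66 (-1.09 to -0.23). A fit without knockdown repeat 1 leaves 1 knockdown sample, so the knockdown has no spread of its own there.

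**Figure D4:**
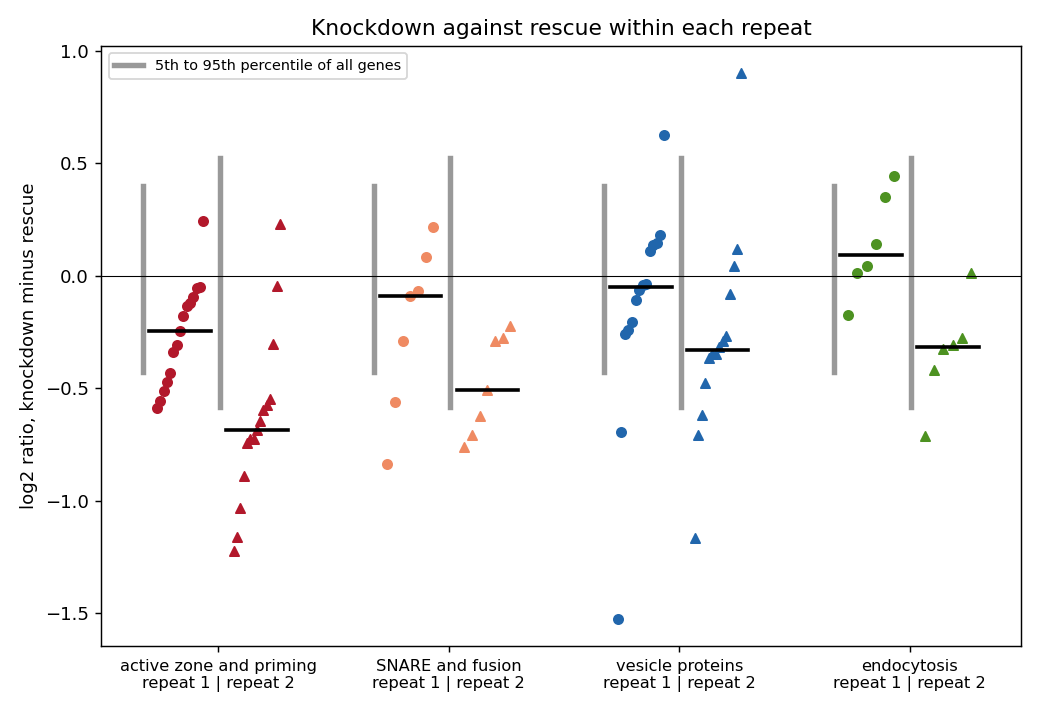
Log2 ratio of the knockdown minus that of the rescue within repeat 1 (circles) and repeat 2 (triangles) for each member, by role; black lines are medians and grey bars the 5th to 95th percentile of all genes. Active zone medians are -0.24 and -0.69, and Rph3a is the lowest point, at -1.53 in repeat 1.

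Other genes of the pathway, 74 measured of 78 listed, lay closer to control than the 42 members. Both lists were made with earlier results of these data known, so this contrast is descriptive only. The other genes include non-neuronal relatives, clathrin and its adaptors. Their knockdown medians were -0.06 in repeat 1 and -0.05 in repeat 2, with 32 below (31.1% of all genes) and 17 above control (30.5% of all genes) in both repeats. In limma 0 of 74 passed in each of the 3 comparisons. At an unadjusted p under 0.05, 12 were lower (9.04% of all genes) and 5 higher (6.93%) for knockdown against control. For rescue against control 4 were lower (4.49%) and 2 higher (2.95%), and for knockdown against rescue 4 were lower (4.01%) and 1 higher (2.81%). With the block 2 passed as lower for knockdown against control (3.48% of all genes), 1 as lower for rescue against control (0.0652%) and 0 as lower for knockdown against rescue (0.431%). Both knockdown values lay below both rescue values in 16 (15.1% of all genes) and above in 12 (16.5% of all genes). By role, the knockdown was below in 4 of 16 active zone and priming genes, 3 of 11 SNARE and fusion genes, 1 of 17 vesicle proteins and 8 of 30 endocytosis genes. For these 16 other active zone and priming genes the median difference between knockdown and rescue was -0.03.

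Ap2a2, an alpha subunit of the clathrin adaptor AP-2, was low in all 4 samples, at -0.53 and -1.31 in the knockdown and at -0.79 and -1.07 in the rescue. Its means were -0.92 and -0.93 (limma adjusted p = 0.0861 and 0.464, or 0.00942 and 0.0482 with the block). Stxbp5l, the relative of Stxbp5, was at -0.42 and -0.82 in the knockdown and at -0.05 and 0.27 in the rescue (knockdown limma adjusted p = 0.108, or 0.0378 with the block). Apba1, the Mint adaptor that binds Munc18, differed between knockdown and rescue by -0.47 and -0.60. Stxbp6 (amisyn, which binds syntaxin) was at 0.36 and 0.33 in the knockdown, the highest of these genes by its lower repeat, and passed in neither fit.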

How the data were processed

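The authors deposited 1 value per probe set and sample, a linear ratio of each test array to its same-repeat control array, per the series design text. The sources used here do not give their background correction, summarization, normalization or genome build. The 35399 probe sets were named from the platform annotation (21789 with exactly 1 symbol, 1621 with several, 11989 not listed). Of those with 1 symbol, 21698 were matched by Entrez identifier to RefSeq names of GRCm38.p6. Log2 ratios were averaged per symbol without centring, and 3 members had several probe sets. The ratios carry no signal over background, so no filter on dim probe sets was possible. Precision is limited by the number of arrays.

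The tests used limma 3.58.1 under R 4.3.3 (lmFit, eBayes, two-sided) over all 19938 genes and 4 samples, with a coefficient per group and 2 residual degrees of freedom, and p-values were adjusted by Benjamini-Hochberg with a threshold of 0.05. Samples with the same number share a replicate date in the labels, which pairs them. Across genes, their deviations from the group means correlated at 0.305, and a second fit took the repeat as a block. Against control, that block also takes out of the spread what both groups of a repeat share through their control array. The shared part stays in the means, so blocked p-values against control can be too small, and calls from them are weaker than they look. No source says that repeats came from different cultures, so the p-values reflect the spread among these 4 samples alone, and that spread may be technical. The script was tested on simulated data.

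All 42 members could be named. Of the other pathway genes, those past a threshold and up to 3 per direction with the largest smaller-of-2-repeats value could be. The members, the gene lists and the 68 marker genes were chosen with earlier results of these data known. Single-gene fits were recomputed under the alternatives for all members in knockdown against control and, elsewhere, for members at an unadjusted p under 0.05. Promoter sequences are RefSeq's (GRCm38.p6).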

Additional observations from a re-analysis of the deposited data

How the results depend on the processing

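With the repeat as a block, counts of members past the threshold for knockdown against control moved from 0 to 14 lower and from 0 to 1 higher. The shares of all genes moved from 0.171% to 3.48% lower and from 0.135% to 1.91% higher. The block changed no count of members in the other comparisons. A fit of the rescue samples alone called 1 member lower than control, Erc2 (0.522% of all genes). Leaving out each sample in turn, counts for knockdown against control ran from 0 to 15 lower and from 0 to 1 higher, those for rescue against control from 0 to 1 lower, and those for knockdown against rescue from 0 to 5 lower and from 0 to 1 higher. The highest counts against control in the knockdown and against the rescue came without knockdown replicate 1. There the lone sample is assumed to vary like the other group. The shares of all genes past the threshold rose there as well, in both directions. With no spread in the knockdown itself, no conclusion is drawn from the counts of that fit. The rescue median ran from -0.094 to -0.024. Under quantile normalization, median centring and a test of every probe set, the count of members past the threshold stayed at 0 in each comparison. Over all genes, at most 0.0652% passed in any direction under quantile normalization and 0.14% under median centring, and 0 of 35399 probe sets passed. With so few calls anywhere, a count of 0 says little about the members. The count of 27 members below the rescue was 26 under quantile normalization (15.4% of all genes) and 27 under median centring (16% of all genes). That of 32 below control was 32 under both (31.9% and 30.9% of all genes). These alternatives for the counts were chosen after seeing the data. Without single samples the counts ran from 27 to 35 and from 35 to 37, but fewer values then have to lie apart. The shares of all genes rose as well, to between 28.8% and 32.5% below the rescue and between 47.6% and 53% below control.

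Of 62 single-gene results, signs turned for 8 genes in knockdown against control, each with its repeats on opposite sides of control. Quantile normalization put Cplx3 at 0.00415, Syn1 at -0.00701 and Synpr at 0.0455. Without single samples, knockdown means ran from -0.023 to 0.040 for Unc13c, -0.075 to 0.068 for Cplx3, -0.32 to 0.18 for Napa, -0.061 to 0.076 for Syn1, -0.61 to 0.094 for Syn2, -0.25 to 0.073 for Syn3, -0.49 to 0.41 for Synpr and -0.60 to 0.073 for Dnm3.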
